A study of Mus musculus with 6 samples.

Results

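Glutamate receptor genes were examined in bulk RNA sequencing of newborn mouse cortex. The 31 genes comprise AMPA, NMDA and kainate receptor subunits, the delta subunit Grid1, metabotropic receptors and AMPA auxiliary subunits, taken by symbol from 53379 genes in the table. All 31 were found and 30 passed the filter on low counts. The exception was the retinal receptor gene Grm6, with 8, 4 and 4 counts in Npas3+/- and 0, 8 and 0 in WT (values of each genotype are given in the order of replicates 1 to 3 throughout). A count of 0 there allows up to 0.0443 CPM (counts scaled for library depth) in WT replicate 1 and 0.0418 in WT replicate 3, which covers counting error only. The study set 3 libraries from Npas3+/- cortex, with 1 disrupted copy of the transcription factor gene Npas3, against 3 from wild-type (WT) cortex, all at postnatal day 0 and all labelled C57BL/6. The labels give neither the construction of the mutant allele nor whether each library came from its own animal, so the p-values here reflect the variation among these libraries, which may be technical.

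Glutamate carries most fast excitation in the brain. AMPA receptors open within milliseconds and are tetramers of the Gria products, NMDA receptors need depolarisation and a Grin1 product to pass calcium, and kainate receptors act on both sides of the synapse. Auxiliary proteins carry AMPA receptors to the membrane and slow their closing, while the metabotropic Grm receptors signal through G proteins. In newborn cortex synapses are still forming, and the mix of subunits is known to change over the following weeks.

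Total counts ran from 67378231 to 87811574 per library. Npas3 stood at 14.96, 14.1 and 8.61 CPM in Npas3+/- replicates 1 to 3 and at 23.4, 28.4 and 25.7 CPM in WT, each Npas3+/- library below each WT library (log2 fold change -1.04, SE 0.20, edgeR adjusted p = 0.270, DESeq2 adjusted p = 0.000175). On the leading principal component (28% of the variance) Npas3+/- replicate 3 lay at 23.0, between WT replicates 3 (10.8) and 1 (28.4), while Npas3+/- replicates 1 and 2 lay at -65.9 and -44.1. All 11 projection neuron markers were present, whereas the 7 hindbrain and cerebellar markers were all under 1 CPM and Hoxa2, Hoxb3 and Gabra6 were at 0. A set of 14 striatal markers had scores (mean log2 deviation from the 6-library mean) of -1.41, -1.38 and 0.51 in Npas3+/- and 1.20, 1.61 and -0.53 in WT, with summed levels of 250.4 to 321.5 and 252.4 to 518.8 CPM and no marker at 0. The 13 astrocyte and radial glia markers summed to 762 to 975 CPM in Npas3+/- and 1138 to 1221 CPM in WT, without overlap. Summed levels also stood apart for thalamus (22.03 to 31.4 CPM in Npas3+/- and 31.7 to 37.9 CPM in WT), olfactory bulb (25.6 to 29.8 and 40.3 to 50.4), oligodendrocyte lineage (305.9 to 321.2 and 270.0 to 301.8) and choroid plexus markers (1.10 to 1.91 and 0.517 to 0.850), and the part of these in the receptor values was not tested. Such sums follow their most abundant markers. Lhx9 and Gbx2 (thalamus), Tbx21 and Th (olfactory bulb) and Folr1 and Kl (choroid plexus) were under 1 CPM in every library. Among tested markers 3 of 5 were lower for thalamus, 3 of 4 for olfactory bulb, 1 of 8 for oligodendrocyte lineage and 1 of 2 for choroid plexus. The mean log2 deviations overlapped between genotypes for thalamus and choroid plexus. In bulk tissue fewer cells of a type and less RNA per cell cannot be told apart.

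The comparison of genotypes asked how the glutamate receptor repertoire differed when 1 copy of Npas3 was lost. The clearest values were a higher level of the presynaptic autoreceptor gene Grm2 and lower levels of the kainate subunit genes Grik2 and Grik1, of Grm5 and of the AMPA subunit gene Gria1. The AMPA, GluN2 and kainate subunit genes with the highest length-scaled level in their class, Gria2, Grin2b and Grik5, differed from WT by at most 0.10 on the log2 scale. In edgeR's quasi-likelihood test, adjusted over 21244 genes by the Benjamini-Hochberg method with a threshold of 0.05, 0 of the 30 members passed (lowest adjusted p = 0.270), where 0.0377% of all genes did (0.0282% higher and 0.00941% lower). Unadjusted p-values under 0.05 were found for 10 members, 8 lower and 2 higher, against 5.84% of all genes lower and 6.29% higher. DESeq2 called 5 of the 29 members to which it gave an adjusted p (Grm2 higher, Gria1, Grik1, Grik2 and Grm5 lower), with 3.4% of 15051 genes called (1.88% higher and 1.51% lower), and limma-voom called 0.

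Libraries did not overlap between genotypes for 11 members, 7 with all Npas3+/- values below WT and 4 above, while 9.18% of all genes lay below and 9.7% above. At a mean of at least 10 CPM, where counting noise is small, the shares of all genes were 10.1% below and 14.7% above, and 7 and 4 of 26 members were so placed. In that range 8 members were lower and 2 higher at an unadjusted p under 0.05, against 7.06% and 10.6% of all genes. The median log2 fold change (Npas3+/- over WT) was -0.04 over the 30 members and -0.009 over all genes. Of the members 18 were lower and 12 higher, and of all genes 10994 were lower and 10250 higher.

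**Figure D1:**
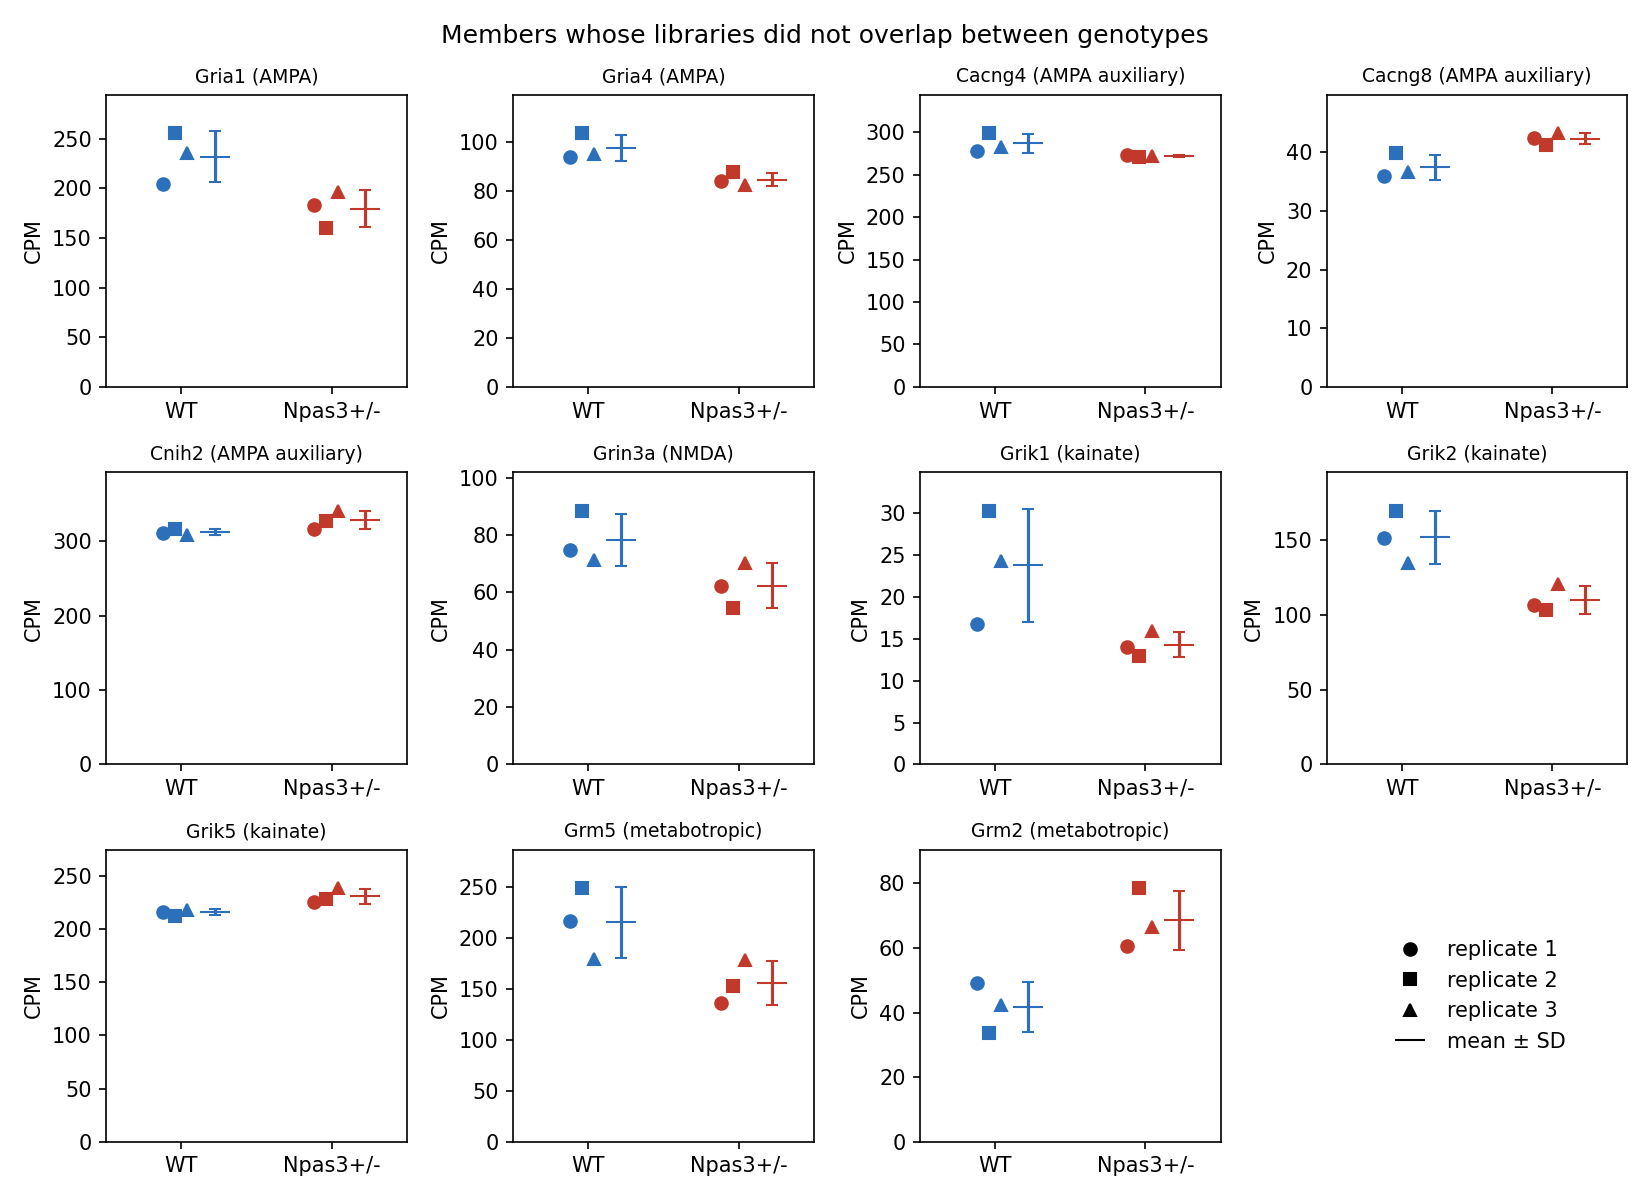
CPM (linear axis from 0) in each library for the 11 members whose genotypes did not overlap, WT in blue and Npas3+/- in red, with mean ± SD beside the points (n = 3). Grm2 stood at 60.6 to 78.5 CPM in Npas3+/- and 33.7 to 49.0 CPM in WT, while the Grm5 groups nearly touched at 178.5 and 179.8 CPM.

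The 4 AMPA subunit genes had log2 fold changes of -0.37 (Gria1), -0.25 (Gria3), -0.20 (Gria4) and -0.09 (Gria2), with a median of -0.22. EdgeR called 0 of them, libraries overlapped between genotypes for Gria2 and Gria3, and Gria2 had the opposite sign with a correction for GC content. Gria1 codes for GluA1, a subunit inserted at synapses during plasticity. It stood at 182.9, 159.8 and 196.0 CPM in Npas3+/- and at 204.3, 255.6 and 235.7 CPM in WT. Every Npas3+/- library lay below every WT library, and the log2 fold change was -0.37 (SE 0.10, edgeR adjusted p = 0.276, DESeq2 adjusted p = 0.0399). Gria4, whose product GluA4 is prominent in immature synapses and interneurons, read 84.1, 87.6 and 82.4 CPM against 94.0, 103.7 and 95.0 CPM. These groups did not overlap either (-0.20, SE 0.06, edgeR adjusted p = 0.296), and the DESeq2 adjusted p was 0.139.

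Gria2 encodes GluA2, the subunit whose edited form keeps calcium out of the channel, and it was the most highly counted member at 1043 ± 73.1 CPM in Npas3+/- and 1111 ± 65.0 CPM in WT (SD, n = 3). Its genotypes overlapped and the log2 fold change was -0.09 (SE 0.06), or 0.03 with a correction for GC content. Gria3 lies on the X chromosome and read 61.7, 87.1 and 61.5 CPM in Npas3+/- against 93.6, 72.7 and 83.0 CPM in WT. Npas3+/- replicate 2, the highest of its group for Gria3, was also the sole library with abundant Xist, at 3667 CPM against at most 2.03 CPM elsewhere. By this mark sex was not balanced between the genotypes. Its part in the values of Gria3, or of any other member, was not tested.

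Scaled for length as CPM per kb of annotated exon, the 4 subunits summed to 113.8, 121.7 and 116.6 in Npas3+/- and 129.8, 133.3 and 138.1 in WT, all Npas3+/- values being lower. Length-scaled sums and shares carry no GC correction, here and below. Gria2 made up 57.1% ± 2.14 of that sum in Npas3+/- and 53.4% ± 2.63 in WT, and Gria1 25.4% ± 3.22 and 28.7% ± 2.86 (SD, n = 3). The Gria2 shares lay close together, the lowest Npas3+/- value being 55.6% and the highest WT value 55.2%. In WT the order by length-scaled level was Gria2 (71.5 ± 4.18 CPM per kb), Gria1 (38.4 ± 4.28), Gria4 (15.5 ± 0.842) and Gria3 (8.43 ± 1.06), each step wider than the SDs.

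**Figure D2:**
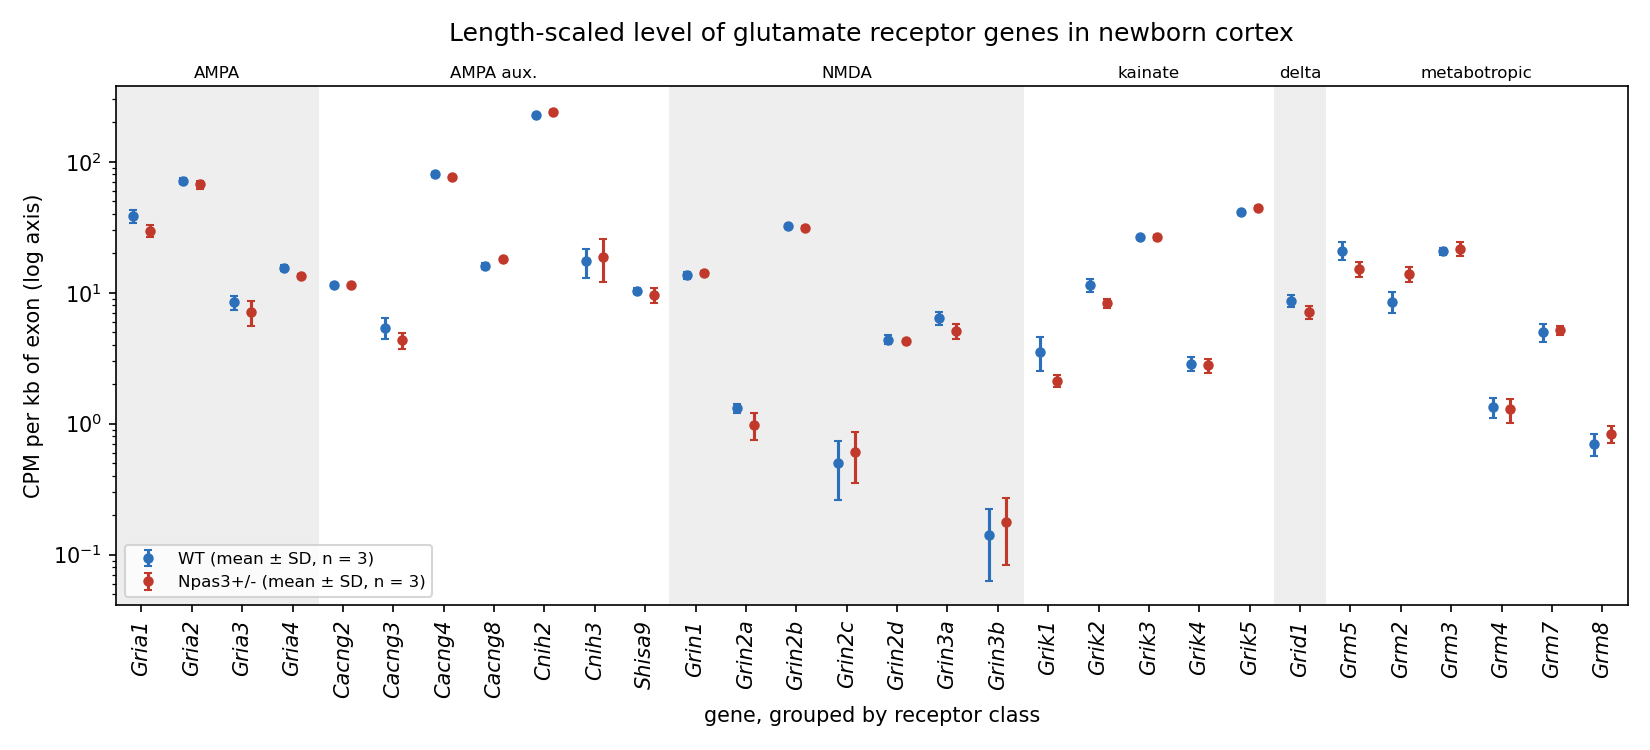
Length-scaled levels (CPM per kb of exon, log axis) of the 30 members that passed the count filter, grouped by class, as mean ± SD of 3 libraries, WT in blue and Npas3+/- in red. Cnih2 stood highest, at 228 CPM per kb in WT, and Grin3b lowest, at 0.142.

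The AMPA auxiliary genes lay on both sides of WT, with a median log2 fold change of -0.01 over 7 genes, 4 of them negative, and single values from -0.31 (Cacng3) to 0.18 (Cacng8). Cacng8 codes for TARP gamma-8, the forebrain member of the transmembrane AMPA receptor regulatory proteins, and stood at 42.3, 41.3 and 43.2 CPM in Npas3+/- and at 35.9, 39.9 and 36.5 CPM in WT. All Npas3+/- libraries were higher (log2 fold change 0.18, SE 0.07, edgeR adjusted p = 0.393). The value was 0.05 with the GC correction. Cnih2, for cornichon-2, was the member with the highest length-scaled level and read 317.3, 327.9 and 341.5 CPM against 312.0, 317.0 and 309.0 CPM. Its groups were separated by less than 1 CPM and the log2 fold change was 0.07 (SE 0.05, edgeR adjusted p = 0.580), or -0.04 with the GC correction.

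Cacng4, the TARP gene most abundant here, stood at 272.3 ± 0.911 CPM in Npas3+/- and 286.9 ± 10.9 CPM in WT, without overlap (log2 fold change -0.08, SE 0.05). Stargazin, the founding TARP, is the product of Cacng2, which stood at 62.7 ± 2.02 and 63.1 ± 2.41 CPM in Npas3+/- and WT (-0.01, SE 0.06). Cacng3 gave -0.31 (SE 0.16), and Shisa9, which encodes the desensitisation-promoting protein CKAMP44, gave -0.11 (SE 0.10). Cnih3 varied most from library to library, at 30.4, 61.5 and 63.9 CPM in Npas3+/- and 61.2, 43.5 and 38.5 CPM in WT. The low Npas3+/- replicate 1 moved the log2 fold change from 0.40 without it to 0.12 with it.

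NMDA receptor genes were close to WT for the obligatory subunit and the main juvenile partner. Grin1, which every NMDA receptor contains, stood at 137.2 ± 5.42 CPM in Npas3+/- and 131.4 ± 8.79 CPM in WT (log2 fold change 0.06, SE 0.07, or -0.02 with the GC correction). The opposite-strand gene Grin1os overlaps 13.47% of the exon bases of Grin1 and was at 6.37 and 6.74 CPM in Npas3+/- and WT. Grin2b, whose GluN2B product dominates the newborn forebrain, stood at 764.3, 806.8 and 767.7 CPM in Npas3+/- and 787.2, 818.9 and 787.0 CPM in WT (-0.03, SE 0.04). It made up 84.3% ± 1.08 of the length-scaled GluN2 level in Npas3+/- and 83.9% ± 0.651 in WT. Grin2d, the other early GluN2 gene, made up 11.4% in both and had a log2 fold change of -0.05 (SE 0.08), or -0.17 with the GC correction. An antisense gene, Gm45441, overlaps 9.66% of the exon bases of Grin2d and was at 0.189 ± 0.0470 and 0.911 ± 0.514 CPM. Grin2c and Grin3b, found mainly in cerebellum and motor neurons, were at 3.07 ± 1.30 and 0.579 ± 0.307 CPM in Npas3+/- and 2.53 ± 1.22 and 0.468 ± 0.263 CPM in WT, and 32.1% of Grin3b exon bases are shared with the opposite-strand gene Tmem259.

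The lower NMDA values belonged to Grin2a and Grin3a. Grin2a encodes GluN2A, which increasingly joins or replaces GluN2B as cortical synapses mature. It read 14.06, 16.4 and 21.96 CPM in Npas3+/- and 24.5, 24.65 and 21.3 CPM in WT, with Npas3+/- replicate 3 inside the WT range (log2 fold change -0.43, SE 0.17, edgeR adjusted p = 0.373). Of the 50-base stretches in Grin2a transcripts, 11.6% also occur in transcripts of 2 other genes. Its counts may therefore depend on how multiply matching reads were treated, which is not known. The log2 ratio of Grin2a to Grin2b was -5.76, -5.62 and -5.13 in Npas3+/- and -5.00, -5.05 and -5.21 in WT, a difference of -0.41. An exact two-sided permutation test gave p = 0.20, where 3 libraries against 3 can give no p below 0.10. Grin3a, for the juvenile subunit GluN3A that limits calcium entry, read 62.1, 54.5 and 70.4 CPM against 74.6, 88.5 and 71.4 CPM. Its nearest libraries, at 70.4 and 71.4 CPM, did not overlap (-0.33, SE 0.12, edgeR adjusted p = 0.349).

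Kainate receptor genes divided by subunit. Grik2 encodes GluK2, the most widespread pore-forming kainate subunit, and stood at 106.4, 102.8 and 120.3 CPM in Npas3+/- and 151.0, 169.5 and 134.3 CPM in WT. The groups were apart, at 72.5% of the WT level (log2 fold change -0.46, SE 0.10, edgeR adjusted p = 0.270, DESeq2 adjusted p = 0.00421). Grik1, for GluK1, which is abundant in interneurons, read 13.98, 12.99 and 15.9 CPM against 16.8, 30.3 and 24.3 CPM. All Npas3+/- libraries were lower, the WT spread was wide, and the level was 60.1% of WT (-0.74, SE 0.21, edgeR adjusted p = 0.276, DESeq2 adjusted p = 0.0198).

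Grik5, whose GluK5 product raises glutamate affinity but needs a GluK1 to GluK3 partner, read 225.2, 228.1 and 238.2 CPM in Npas3+/- and 216.1, 212.4 and 217.7 CPM in WT. The groups did not overlap (log2 fold change 0.10, SE 0.05, edgeR adjusted p = 0.4435), and the GC correction gave -0.01. Grik3 (0.01, SE 0.05) and Grik4 (-0.03, SE 0.13) overlapped. As shares of the length-scaled kainate sum, without the GC correction, Grik5 stood at 52.9% ± 0.635 in Npas3+/- and 48.5% ± 1.81 in WT. Grik2 stood at 9.82% ± 0.515 and 13.3% ± 1.27. Grid1, for the delta receptor GluD1 that links to cerebellins across the synapse, stood at 40.2, 39.1 and 48.15 CPM in Npas3+/- and 52.35, 56.7 and 46.2 CPM in WT, overlapping at replicate 3 of each genotype (-0.29, SE 0.11, edgeR adjusted p = 0.373).

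**Figure D3:**
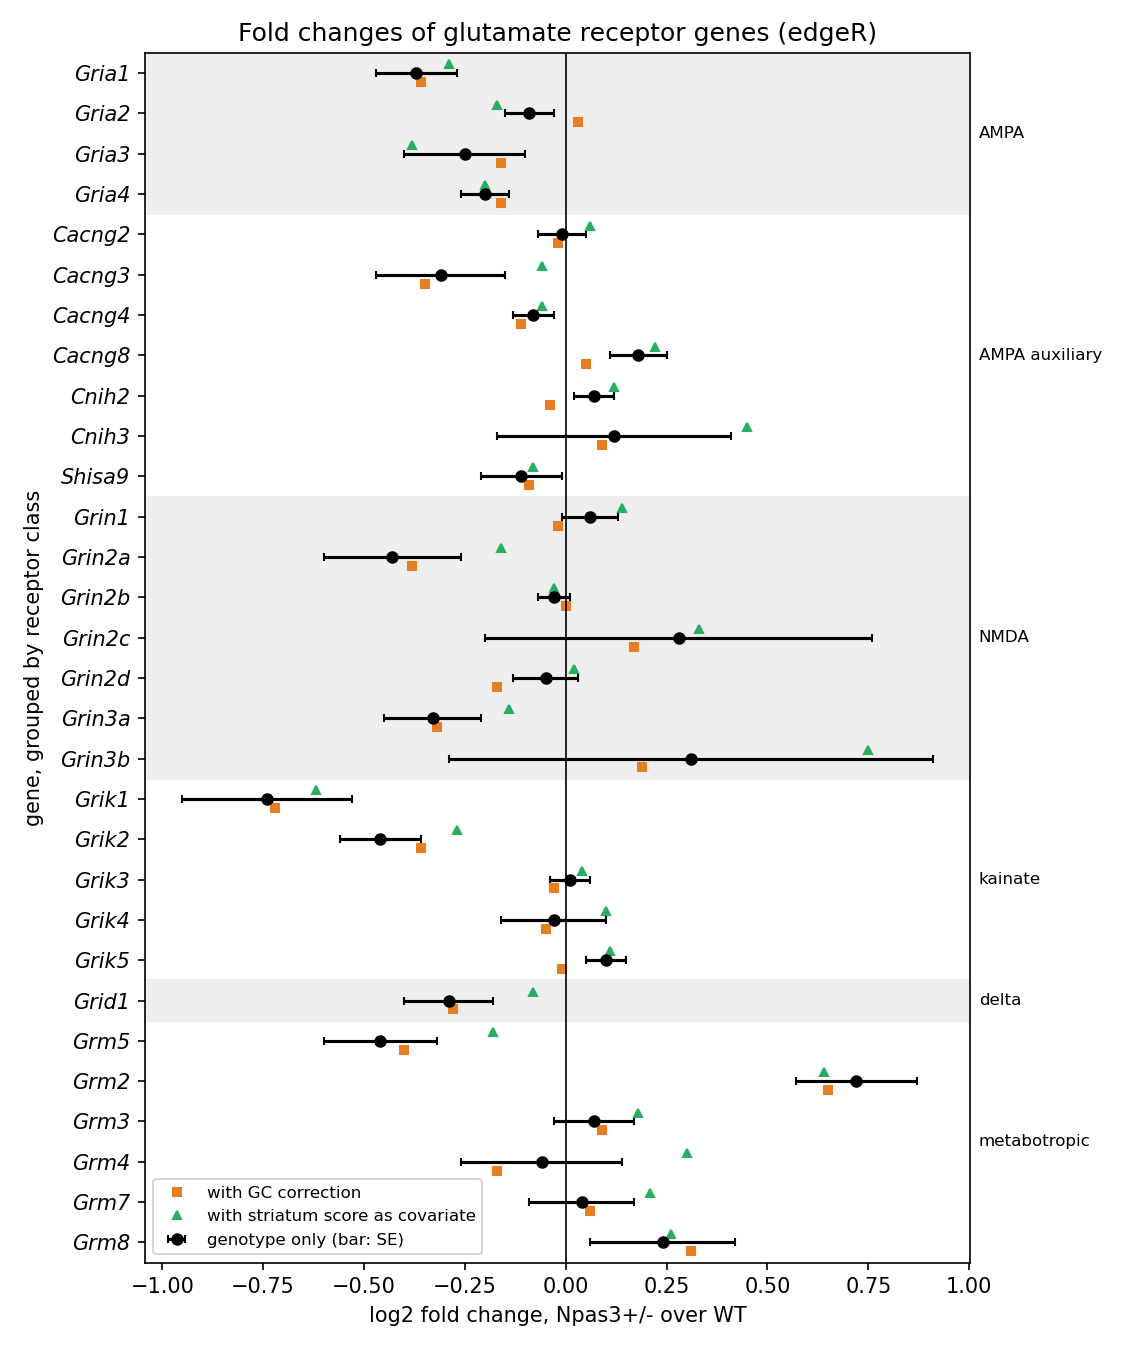
Log2 fold change of each of the 30 tested members (Npas3+/- over WT), with SE bars for the fit on genotype alone (black), and the value with the GC correction (orange squares) or with the striatum score as a covariate (green triangles). Grm2 lay at 0.72, 0.65 and 0.64 in these fits, while Grm5 went from -0.46 to -0.40 and -0.18.

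Among metabotropic receptors, Grm2 and Grm5 lay in opposite directions. Grm2 (chromosome 9, 106643095 to 106656082 in mm10) encodes mGlu2, an inhibitory group II receptor that acts as an autoreceptor on glutamatergic terminals. It had 60.6, 78.5 and 66.5 CPM in Npas3+/- and 49.0, 33.7 and 42.4 CPM in WT. Every Npas3+/- library lay above every WT library, at 164% of the WT level. The log2 fold change was 0.72 (SE 0.15, unadjusted p = 0.00170, edgeR adjusted p = 0.270), ranging from 0.58 to 0.85 with each library left out, and DESeq2 gave an adjusted p of 0.00109. Over the alternatives in edgeR and limma-voom the adjusted p ran from 0.205 to 0.823. An antisense gene, Gm28111, shares 9.6% of the exon bases of Grm2 but was at 0.267 ± 0.152 CPM in Npas3+/- and 0.277 ± 0.136 CPM in WT.

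Grm3, the other group II gene, is expressed by glia as well as neurons and stood at 66.2 ± 8.06 CPM in Npas3+/- and 63.2 ± 4.23 CPM in WT (log2 fold change 0.07, SE 0.10). Grm2 made up 39.9%, 40.4% and 37.3% of the length-scaled group II level in Npas3+/- and 32.1%, 24.0% and 31.1% in WT. Grm5 encodes mGlu5, a group I receptor that signals through phospholipase C, and read 136.2, 153.3 and 178.5 CPM in Npas3+/- and 217.1, 248.9 and 179.8 CPM in WT. The groups were apart by little more than 1 CPM (-0.46, SE 0.14, edgeR adjusted p = 0.287, DESeq2 adjusted p = 0.0340). The group III genes Grm4 (-0.06, SE 0.20), Grm7 (0.04, SE 0.13) and Grm8 (0.24, SE 0.18) all overlapped between genotypes.

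The sequences upstream of Grm2 and Grik2 are shown because these members had the smallest p-values and lay in opposite directions. They are the 250 bases before the RefSeq start, on the gene's strand (GRCm38.p6, the assembly of mm10), at chr9:106656110-106656359 and chr10:49788755-49789004, both on the minus strand. RefSeq promoters were matched for 20 of the 31 members. Capitals mark TTCAGCACC and GGACAG, the left and right parts of the RE1 element bound by the neuronal repressor REST, which were searched after the Grm2 sequence had been read. In the Grm2 window they lie at bases 9 to 17 and 25 to 30. Their spacing was not compared with that of a whole RE1 element, so an intact element is not shown.
Grm2: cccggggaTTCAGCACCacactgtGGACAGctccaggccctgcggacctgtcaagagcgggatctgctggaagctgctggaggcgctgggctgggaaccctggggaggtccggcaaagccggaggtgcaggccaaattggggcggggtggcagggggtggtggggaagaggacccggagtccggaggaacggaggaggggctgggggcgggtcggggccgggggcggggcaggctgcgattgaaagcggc
Grik2: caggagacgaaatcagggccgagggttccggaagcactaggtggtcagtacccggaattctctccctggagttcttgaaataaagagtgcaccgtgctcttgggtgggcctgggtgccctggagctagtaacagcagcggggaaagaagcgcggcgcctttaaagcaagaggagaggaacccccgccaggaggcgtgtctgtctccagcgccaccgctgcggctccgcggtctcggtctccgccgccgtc
On either strand, TTCAGCACC was found in 0.301% of 32851 promoter windows of this length and GGACAG in 18.7%. Both were found in 16 windows (0.0487%), whatever their order, strand or spacing. Grm2 was the 1 member among them, and its place there was given in advance, since its sequence had been read before the search. Rest itself stood at 16.4 ± 0.0741 CPM in Npas3+/- and 19.2 ± 1.62 CPM in WT (log2 fold change -0.23, SE 0.09, edgeR adjusted p = 0.399). The part of Rest in the Grm2 values was not tested. ACGTG, the core bound by basic helix-loop-helix PAS factors, was in 16.6% of windows and in those of Cnih3, Grin1 and Grm8. Neither printed window holds these letters, and in them no match lies on another. A match is a description of the letters and not a binding site.

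With the striatum score as a covariate the log2 fold changes were -0.18 for Grm5, -0.27 for Grik2, -0.16 for Grin2a, -0.14 for Grin3a, -0.08 for Grid1 and -0.06 for Cacng3. They were 0.64 for Grm2, -0.62 for Grik1, -0.29 for Gria1 and -0.20 for Gria4. Values that grew in size included Gria3 (-0.25 to -0.38), Gria2 (-0.09 to -0.17) and Cnih3 (0.12 to 0.45). The score was lowest in Npas3+/- replicates 1 and 2 and highest in WT replicates 1 and 2. With 6 libraries its part and that of genotype cannot be fully told apart. In that fit the edgeR adjusted p was 0.823 for Grm2, Grik1, Grik2, Grm5, Gria1 and Gria4 alike. Interneuron markers had scores of -0.45, -0.36 and 0.15 in Npas3+/- and 0.21, 0.40 and 0.04 in WT, summed levels of 591.6 to 848.4 and 816.1 to 980.7 CPM and none of the 14 at 0. The part of interneurons in these receptor values was not tested.

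**Figure D4:**
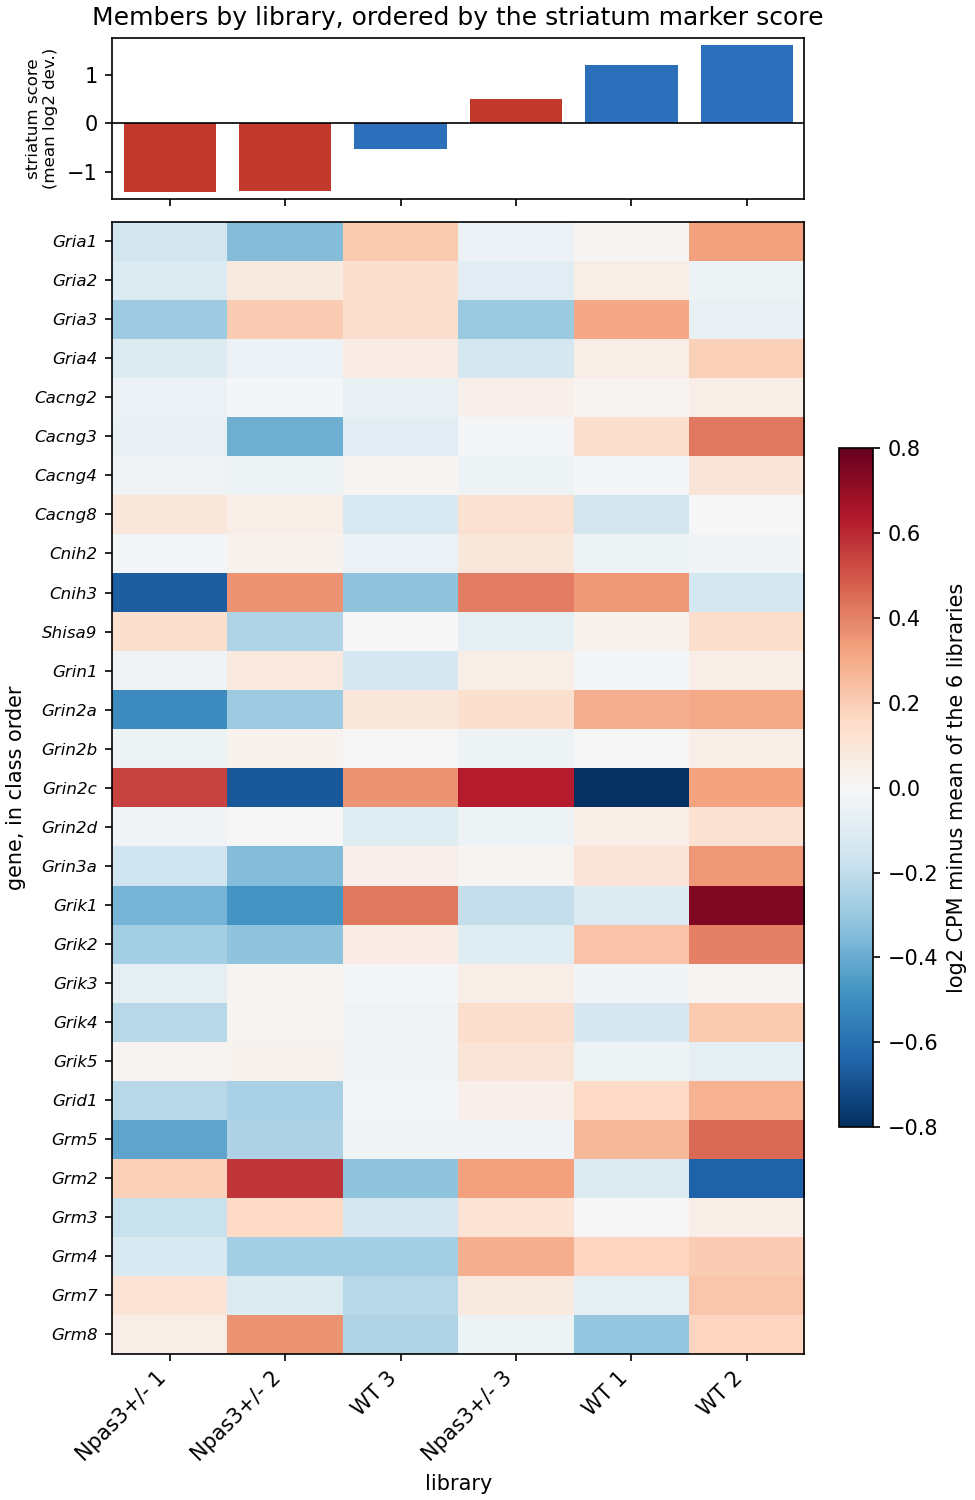
Top, striatum score of each library (mean log2 deviation of 14 markers; WT blue, Npas3+/- red). Bottom, log2 CPM of the members with a mean of at least 1 CPM minus their mean over the 6 libraries (colour limited to ±0.8, red is higher). Columns are ordered by the score from Npas3+/- replicate 1 at -1.41 to WT replicate 2 at 1.61. Grm5 and Grid1 go from blue to red along this order, with exceptions. Grm2 is red in every Npas3+/- library and blue in every WT library.

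Members also differed by the composition and span of the gene. Across the 30 tested members the log2 fold change had a Spearman rho of 0.55 with transcript GC content and -0.54 with the genomic span, against 0.18 and -0.01 across 21202 genes. These are correlations across genes that share the same 6 libraries, and genes are not independent replicates. Of 19 members spanning over 100000 bases 14 were lower (median -0.11), and of 11 shorter members 4 were lower (0.07), where the medians over all genes were -0.04 and 0.00. With all genes cut into 5 equal bins by GC content, the median was -0.08 in the bottom bin and 0.07 in the top bin. With the GC correction the rho of the members was 0.27 with GC and -0.36 with span. Gria1, Grik1 and Grin3a were nearly unmoved by it (-0.36, -0.72 and -0.32). Grm2 went from 0.72 to 0.65, and Grik2, the member with a GC content of 37.9%, from -0.46 to -0.36.

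**Figure D5:**
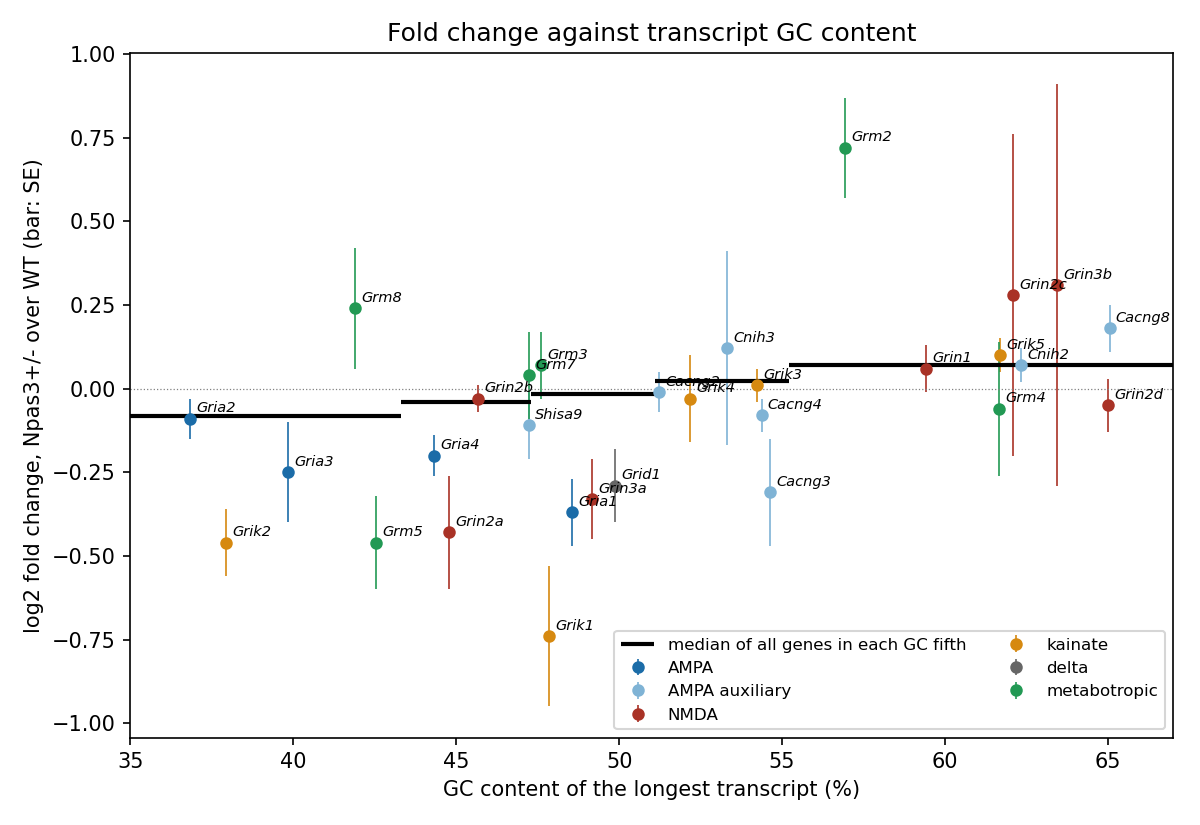
Log2 fold change (Npas3+/- over WT, bars SE) of the 30 tested members against GC content of the longest transcript, coloured by class, with black lines for the median of all genes in each of 5 GC bins (-0.08 to 0.07). Grm2 at 0.72 and Grik1 at -0.74 lie farthest from these lines.

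Other genes of the glutamatergic synapse were read from 4 lists with no member in them. Of 23 further auxiliaries and partners 10 were lower and 13 higher (median 0.05), of 20 scaffold and trafficking genes 5 and 15 (0.14), of 15 signalling and RNA editing genes 7 and 8 (0.01), and of 7 genes of glutamate supply and release 3 and 4 (0.09). In each list edgeR called 0 genes over all genes tested. Unadjusted p-values under 0.05 numbered 4 lower and 3 higher among partners and 2 and 4 among scaffolds. They numbered 3 and 3 in signalling and 0 and 1 in release, against 5.84% of all genes lower and 6.29% higher. DESeq2 called 1 lower and 2 higher among partners, 1 higher among scaffolds, 2 higher in signalling and 0 in release. Its shares of all genes were 1.51% lower and 1.88% higher.

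Neto1 and Neto2 encode auxiliary subunits of kainate receptors. Neto2 stood at 232.4, 254.8 and 242.5 CPM in Npas3+/- and 267.5, 299.7 and 302.0 CPM in WT (log2 fold change -0.25, SE 0.06, edgeR adjusted p = 0.276), without overlap, and the GC correction gave -0.13. Neto1 gave -0.47 (SE 0.14, edgeR adjusted p = 0.291, DESeq2 adjusted p = 0.0423), and -0.20 with the striatum score as a covariate. Its nearest libraries were at 66.7 CPM in Npas3+/- and 67.9 CPM in WT. Cnih1, a cornichon of the early secretory pathway, gave -0.30 (SE 0.08). Cbln2, which encodes a cerebellin that binds delta receptors, read 33.2, 38.8 and 20.6 CPM against 19.1, 17.6 and 18.7 CPM (0.74, SE 0.21, edgeR adjusted p = 0.278, DESeq2 adjusted p = 0.0186), and 0.37 with the striatum score as a covariate. Npas3+/- replicate 3 lay near WT for this gene. Lrrtm1, for a postsynaptic adhesion protein, gave 0.26 (SE 0.07).

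The GRIP scaffolds, which bind the tails of GluA2 and GluA3, went apart: Grip2 was at 118.8, 121.6 and 114.0 CPM against 101.4, 90.04 and 97.5 CPM (log2 fold change 0.29, SE 0.06, edgeR adjusted p = 0.270, DESeq2 adjusted p = 0.0175), and Grip1 gave -0.22 (SE 0.07). Dlg3, for the scaffold SAP102 of young synapses, gave 0.27 (SE 0.07). Adarb1 encodes the adenosine deaminase that edits the pore codon of Gria2 and Grik2 transcripts, and read 107.6, 110.0 and 102.0 CPM in Npas3+/- and 76.9, 65.3 and 88.1 CPM in WT. The groups did not overlap (0.47, SE 0.11, edgeR adjusted p = 0.272, DESeq2 adjusted p = 0.00701), and the striatum covariate gave 0.31. Gene counts hold no measure of editing. Itpr1, the calcium release channel downstream of mGlu5, gave 0.42 (SE 0.13), and 0.18 with that covariate. In the release list, Slc38a1 gave 0.16 (SE 0.06) and Slc17a6 gave -0.22 (SE 0.10).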

How the data were processed

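Raw read counts per gene for 6 libraries were deposited by the authors as a single table. For the genome mm10 the submitters' processing notes list HISAT2 2.1.0, featureCounts and Trimmomatic 0.3.8; annotation release, strand use and treatment of multiply matching reads are not given in the sources used here, so counts of overlapping genes are uncertain. Groups and replicate numbers came from the labels; columns abbreviated NP were taken as Npas3+/-. Identifiers were matched without version to GENCODE M21 (53274 matched, 105 not), which gave coordinates, exon-union lengths and GC content.

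Counts were analysed with edgeR 4.0.16 in R 4.3.3: filterByExpr (21244 genes kept), TMM scaling, and glmQLFit with glmQLFTest on genotype. SE is the log2 fold change over the root of F. Alternatives used limma 3.58.1 (voom), DESeq2 1.42.0 with its independent filtering, RLE or upper-quartile scaling, other filters, the replicate block, a lowess GC correction (span 0.4), the striatum score and each library left out. Log2 values per library used a prior count of 2. The steps were also run on simulated counts, drawn independently for each gene. These carried neither the GC trend nor the marker differences seen here, so the steps were not tested under those conditions. All members were named, with the 3 smallest p-values of each further list at a mean of at least 1 CPM, of which a few are not reported here; Neto1 and Cbln2 (called by DESeq2), Rest, Xist and overlapping genes were added after their values were seen. Members and lists were chosen with earlier results of these data known.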

Additional observations from a re-analysis of the deposited data

How the results depend on the processing

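In edgeR and limma-voom 0 members passed under any alternative (lowest adjusted p 0.182); DESeq2 called 1 member higher and 4 lower, and over all genes 283 higher and 228 lower against 6 and 2 in edgeR. With the replicate block edgeR called 3 genes higher and 0 lower, the same with the GC correction added, and 0 members. Deviations from the group means correlated at 0.037, -0.03 and -0.088 between same-numbered libraries. With 3 libraries per group such values cannot show whether the numbers mark a pairing, and the labels do not say. The striatum covariate left 1 gene called lower. With each library left out, 5 to 11 genes were called higher and 2 to 5 lower, the highest counts being 11 and 5 without WT replicate 1, with 5 lower also without Npas3+/- replicate 3. The cause was not tested. The member median ranged from -0.055 to 0.032, and the Grin2a to Grin2b difference from -0.60 without Npas3+/- replicate 3 to -0.28. Of 479 member fold changes under 16 alternatives 36 changed sign, in 14 members with values of at most 0.314 in size. The GC correction gave 0.027 for Gria2, -0.035 for Cnih2, -0.024 for Grin1, 0.003 for Grin2b, -0.03 for Grik3 and -0.006 for Grik5, and with the replicate block 0.028, -0.035, -0.022, 0.003, -0.031 and -0.006. The striatum covariate gave 0.059 for Cacng2, 0.021 for Grin2d, 0.104 for Grik4 and 0.299 for Grm4. Grik3 was at -0.006 with upper-quartile scaling and -0.001 with a filter of 1 CPM in 3 libraries. With 1 library left out the ranges were -0.034 to 0.016 for Cacng2, -0.05 to 0.395 for Cnih3, -0.013 to 0.043 for Grik3, -0.112 to 0.068 for Grik4, -0.069 to 0.597 for Grin2c, -0.102 to 0.004 for Grin2d, -0.016 to 0.869 for Grin3b, -0.237 to 0.05 for Grm4 and -0.052 to 0.173 for Grm7. Depth limits Grin3b, with 18 to 62 counts per library, and Grm6.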
